A study of Mus musculus with 20 samples.

Results

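The mitosis genes are a list of 40 genes that act in the entry into, the course of and the exit from cell division. They were chosen by symbol, and all 40 were found among the 24848 genes of the tables and passed the filter on low counts, as did 14751 genes in all. They were read here as a measure of proliferation in mesenchymal cells of the C57BL/6 mouse liver and in the myofibroblasts grown from them, in 20 RNA sequencing libraries of 5 groups with 4 libraries each. The groups are fresh portal mesenchymal stem cells (PMSC), the myofibroblasts they formed after 3 days (PMSC-MF-3d) and 7 days (PMSC-MF-7d) in culture, myofibroblasts grown from hepatic stellate cells (HSC-MF-7d), and fresh hepatic stellate cells (HSC). Titles place the stellate cultures at 7 days and the series text at 3 days, so their time is uncertain. No genotype, agent or transgene is named for any group, and the labels give neither the age and sex of the mice nor how the cells were isolated. Whether a group's libraries are different animals or cultures is not stated in the labels. The p-values therefore reflect only how much these libraries vary, which may be technical. In bulk RNA, fewer dividing cells and less mitotic RNA per cell cannot be told apart.

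A cell enters mitosis when cyclin-bound Cdk1 is switched on by the Cdc25 phosphatases and the Polo and Aurora kinases. The chromosomes are then condensed, attached through their kinetochores to the spindle and held by the spindle checkpoint until the anaphase-promoting complex, activated by Cdc20, marks cyclin B and securin for destruction. Most of these genes are transcribed late in the cell cycle by the MuvB complexes with B-Myb and FoxM1, and resting liver mesenchyme divides little until injury or culture starts its conversion to myofibroblasts.

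Because the 40 genes moved together in culture, the promoters of 5 of them are shown. These are B-type cyclins, their kinase partner, the Polo kinase and topoisomerase II alpha, from RefSeq on GRCm38.p6, the assembly behind mm10. Each window runs 5′ to 3′ on the gene's own strand from 250 bases before the annotated start to 50 after it, and lies at the start of the first exon. Capitals mark matches to the cell cycle genes homology region (CHR, searched as TTTGAA and TTCGAA on both strands) and to the CCAAT box (searched as CCAAT on both strands, so that ATTGG is the reverse match). The windows are chr13:100786437-100786736 on the minus strand for Ccnb1, chr9:70421505-70421804 on the minus strand for Ccnb2 and chr10:69352863-69353162 on the minus strand for Cdk1. Those of Plk1 and Top2a are chr7:122159185-122159484 on the plus strand and chr11:99024140-99024439 on the minus strand.
Ccnb1: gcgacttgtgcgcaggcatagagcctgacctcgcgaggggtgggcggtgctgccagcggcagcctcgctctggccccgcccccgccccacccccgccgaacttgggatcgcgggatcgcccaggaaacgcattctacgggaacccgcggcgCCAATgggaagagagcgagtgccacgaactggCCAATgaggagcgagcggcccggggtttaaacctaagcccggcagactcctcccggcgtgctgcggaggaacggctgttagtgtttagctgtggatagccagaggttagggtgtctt
Ccnb2: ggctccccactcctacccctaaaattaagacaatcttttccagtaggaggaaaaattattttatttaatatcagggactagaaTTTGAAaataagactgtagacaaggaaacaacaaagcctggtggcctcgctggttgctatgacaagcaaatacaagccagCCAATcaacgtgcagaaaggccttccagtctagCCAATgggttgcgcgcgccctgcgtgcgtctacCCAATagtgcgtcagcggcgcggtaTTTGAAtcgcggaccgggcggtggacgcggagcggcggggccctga
Cdk1: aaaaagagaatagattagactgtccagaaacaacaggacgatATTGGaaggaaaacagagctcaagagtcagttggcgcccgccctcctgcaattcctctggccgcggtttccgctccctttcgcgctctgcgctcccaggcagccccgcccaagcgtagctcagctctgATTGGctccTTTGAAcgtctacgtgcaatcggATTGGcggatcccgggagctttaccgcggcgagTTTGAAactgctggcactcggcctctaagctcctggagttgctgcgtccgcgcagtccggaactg
Plk1: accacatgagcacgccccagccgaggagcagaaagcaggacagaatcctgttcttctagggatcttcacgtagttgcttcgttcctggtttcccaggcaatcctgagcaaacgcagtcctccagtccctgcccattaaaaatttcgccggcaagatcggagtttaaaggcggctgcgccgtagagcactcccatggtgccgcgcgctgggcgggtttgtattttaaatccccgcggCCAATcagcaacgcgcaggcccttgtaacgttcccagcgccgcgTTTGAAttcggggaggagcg
Top2a: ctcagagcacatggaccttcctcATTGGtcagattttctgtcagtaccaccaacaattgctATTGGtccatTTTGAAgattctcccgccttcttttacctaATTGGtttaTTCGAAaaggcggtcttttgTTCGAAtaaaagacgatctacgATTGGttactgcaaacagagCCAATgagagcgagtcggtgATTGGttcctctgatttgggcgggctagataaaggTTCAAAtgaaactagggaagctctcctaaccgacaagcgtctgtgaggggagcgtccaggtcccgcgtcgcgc

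The Cdk1 window held 2 CHR matches and 3 CCAAT matches, and its nearer CHR began at base -15, counted from 0 at the annotated start. Plk1 held 1 of each, Ccnb2 2 and 3, and Top2a 4 and 6. Ccnb1 held 2 CCAAT matches and no CHR match. A window was listed for 34 of the 40 genes, all but Ccna2, Cdc25c, Aurkb, Kif20a, Tpx2 and Foxm1. Of these 34 windows, 26 (76.5%) held a CHR match, against 13.9% of the 11463 tested genes with a window. CCAAT was in 26 of 34 (76.5%), against 38.6% of all, and both motifs were in 23 (67.6%), against 5.85%. In the last 100 bases of the window, 24 of the 34 (70.6%) held a CHR match, against 3.44% of all. Matches overlapped one another in 2 of the 34 windows. A match is a description of these letters and not a bound site.

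The libraries held 11810532 to 26675589 expected counts, the estimated read counts per gene that were deposited. In sum, fresh cells carried the markers of their labels. The summed level of 12 portal mesenchyme markers was 16260 to 18638 CPM in PMSC and 530.3 to 913 in HSC, and that of 12 stellate cell markers was 2914 to 3758 in PMSC and 21250 to 32540 in HSC. CPM are counts relative to the library size, adjusted by trimmed means of M-values, or TMM. All 12 portal markers were higher in PMSC than in HSC, while of the 12 stellate markers 8 were lower and 2 higher. Over all tested genes 40.1% were lower and 33.6% higher. Summed markers of macrophages, endothelial cells, hepatocytes and erythroid cells were highest in HSC, while those of lymphocytes and cholangiocytes were not. In HSC, 12 macrophage markers summed to 2583 to 9351 CPM, 10 endothelial markers to 6520 to 7745 and 12 hepatocyte markers to 3448 to 14956. The 6 erythroid markers summed to 40.1 to 58.1 CPM there.

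The 40 genes were lowest in fresh portal cells and highest in portal cultures. Their summed level in TPM, the RSEM unit that allows for gene length, was 52.7 ± 8.59 in fresh PMSC, 2299 ± 136 at day 3 of portal culture and 2225 ± 213 at day 7 (SD, n = 4 each). In the stellate lineage it was 1053 ± 69.6 TPM in HSC-MF-7d and 188 ± 12.3 in HSC. They took 0.00610% to 0.00905% of all counts in fresh PMSC, 0.290% to 0.339% at day 3 and 0.271% to 0.328% at day 7 of portal culture, and 0.131% to 0.151% in HSC-MF-7d against 0.0241% to 0.0284% in HSC. By mean log2 CPM, 28 of the 40 genes ran, from high to low, PMSC-MF-3d, PMSC-MF-7d, HSC-MF-7d, HSC, PMSC, and 10 more differed from this only in the order of the portal cultures. Foxm1 and Cdc25b were the exceptions, with a higher mean log2 CPM in PMSC than in HSC.

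**Figure D1:**
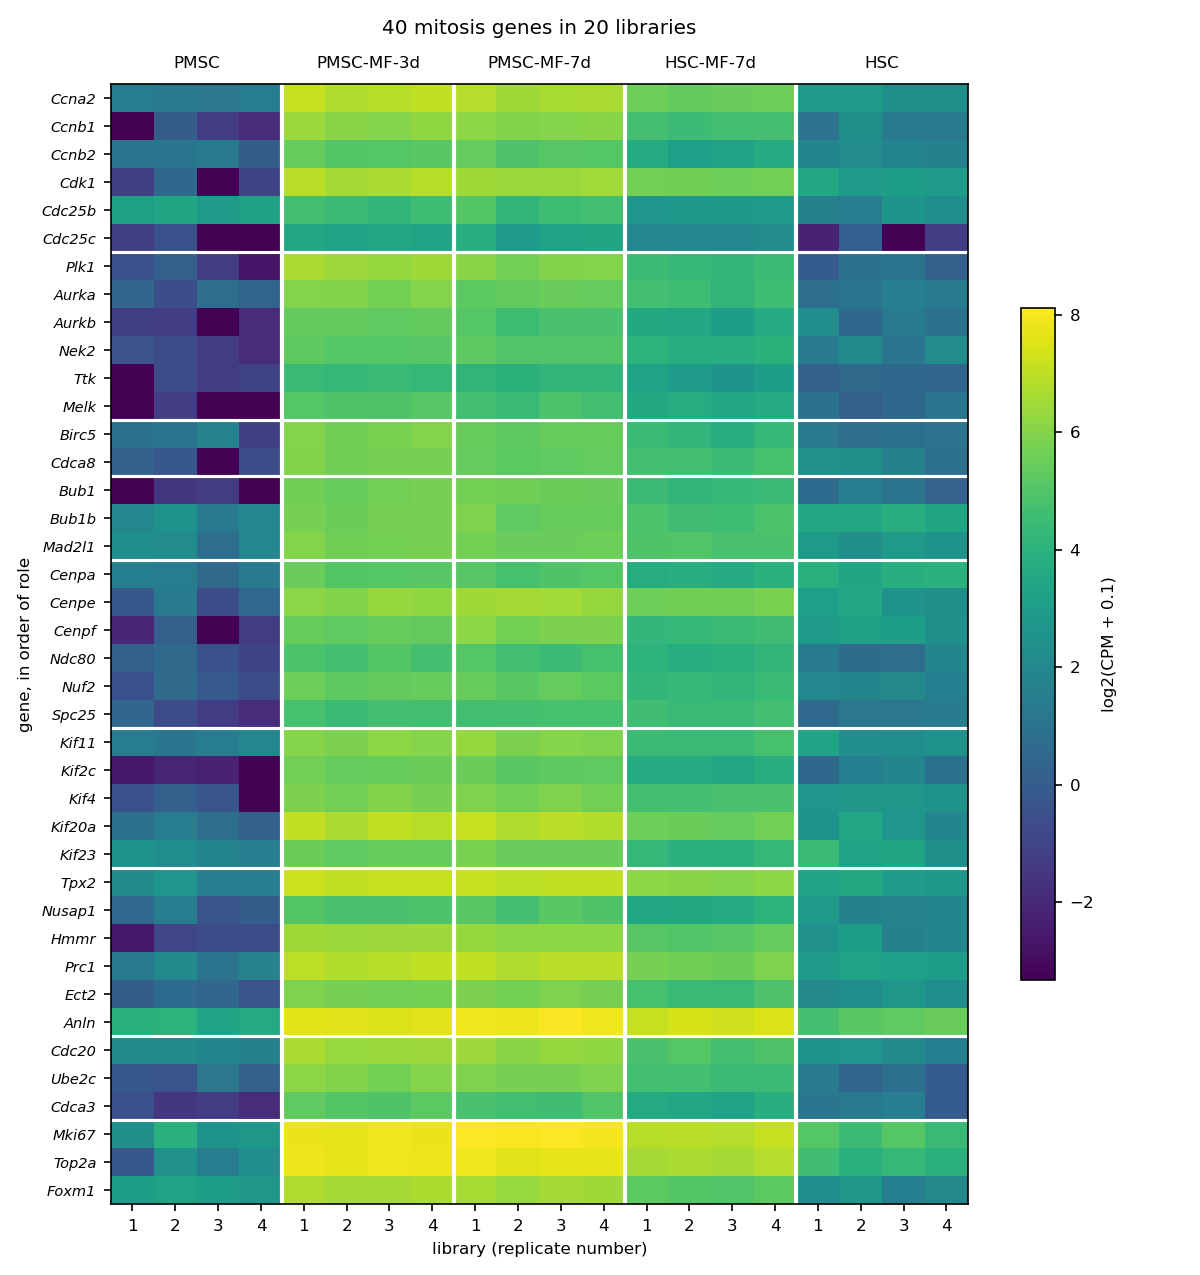
Level of each of the 40 mitosis genes as log2(CPM + 0.1), a row per gene in order of role and a column per library, with 4 libraries in each of 5 groups. Except for Foxm1 and Cdc25b, portal cultures are brightest by group mean, stellate cultures next and fresh PMSC darkest.

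Several genes of mitotic entry were near 0 in fresh portal cells. Gene positions are those of the GENCODE annotation of GRCm38. Ccnb1, a B-type cyclin (chromosome 13, 100778650 to 100786570, minus strand), had 0, 0.947, 0.313 and 0.174 CPM in fresh PMSC, 82.6, 68.4, 65.8 and 74.4 in the day 3 portal cultures and 72.7, 60.5, 64.8 and 67.2 in the day 7 portal cultures. In the stellate lineage it had 26.5, 23.1, 26.4 and 26.72 CPM in HSC-MF-7d and 1.93, 5.07, 2.53 and 2.48 in HSC. No group overlapped another except the portal cultures with each other, and the log2 fold change, given with its standard error throughout, was 7.49 ± 0.37 for PMSC-MF-7d against PMSC and 3.09 ± 0.27 for HSC-MF-7d against HSC (edgeR adjusted p at or below 3.84e-09). Ccnb2, the other B-type cyclin (chromosome 9, 70407692 to 70421547, minus strand), had 2.13, 2.08, 2.40 and 0.930 CPM in fresh PMSC, 43.9, 33.3, 34.3 and 36.6 at day 3 of portal culture and 42.1, 30.1, 35.7 and 34.1 at day 7. It had 12.9, 8.56, 9.54 and 13.0 CPM in HSC-MF-7d and 3.68, 4.53, 3.47 and 3.14 in HSC. Its change in culture was smaller than that of Ccnb1 in both lineages, at 4.27 ± 0.22 for PMSC-MF-7d against PMSC and 1.57 ± 0.20 for HSC-MF-7d against HSC. Cdk1, the kinase both cyclins activate (chromosome 10, 69335146 to 69352938, minus strand), had 0.333, 1.33, 0 and 0.407 CPM in fresh PMSC, 121, 94.9, 101 and 117 after 3 days of portal culture and 89.0, 84.7, 84.0 and 91.1 after 7 days. Stellate libraries held 50.7, 49.5, 48.0 and 51.6 CPM in HSC-MF-7d and 11.2, 7.21, 8.42 and 7.97 in HSC. Every HSC library was above every PMSC library, and every portal culture was above every stellate culture. At day 7 the log2 fold change of portal against stellate cultures was 0.80 ± 0.19 (edgeR adjusted p = 0.00173), a call lost with limma on log2(TPM + 0.1) (adjusted p = 0.112).

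Of the other entry genes, Ccna2, the cyclin of S and G2 phase, changed by 5.30 ± 0.16 for PMSC-MF-7d against PMSC and by 2.82 ± 0.14 for HSC-MF-7d against HSC. Cdc25b, a phosphatase that starts Cdk1 activation, had the smallest rise of the 40 at day 3. It had 9.04, 10.9, 7.31 and 9.12 CPM in fresh PMSC, 25.3, 22.7, 18.4 and 23.3 in the day 3 portal cultures and 32.5, 17.5, 23.8 and 26.0 in the day 7 portal cultures, and 6.41, 6.69, 6.74 and 7.54 CPM in HSC-MF-7d against 3.08, 2.74, 6.00 and 4.84 in HSC. Per length it was the leading mitosis gene of PMSC, at 5.24 ± 0.935 TPM, but it ranked 37 of 40 in both portal cultures. Cdc25c, a related phosphatase, stayed at or under 0.954 CPM in every fresh library, and its culture change was the only one whose difference between the lineages did not pass the threshold (difference 1.81 ± 0.94, edgeR adjusted p = 0.104).

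The mitotic kinases rose together in portal culture. Plk1, the Polo kinase of centrosome maturation and cytokinesis (chromosome 7, 122159439 to 122169873, plus strand), had 0.599, 1.01, 0.313 and 0.0581 CPM in fresh PMSC, 100.4, 85.5, 78.0 and 90.1 at day 3 of portal culture and 67.5, 51.1, 60.4 and 64.2 at day 7. It had 22.6, 19.5, 17.5 and 22.4 CPM in HSC-MF-7d and 0.905, 1.91, 2.09 and 1.05 in HSC. Each PMSC-MF-7d library was below each PMSC-MF-3d library, and both sets of portal cultures were above the stellate cultures. Aurkb, the kinase of the chromosomal passenger complex that corrects wrong spindle attachments (chromosome 11, 69045647 to 69051664, plus strand), had 0.333, 0.316, 0 and 0.174 CPM in fresh PMSC, 41.4, 40.6, 39.2 and 41.5 after 3 days of portal culture and 33.8, 23.4, 28.1 and 28.4 after 7 days. It had 12.04, 11.2, 8.52 and 12.9 CPM in HSC-MF-7d and 4.71, 1.37, 2.42 and 1.90 in HSC. Here too the day 7 libraries were all below the day 3 libraries. The passenger subunits Birc5 (survivin) and Cdca8 (borealin) changed by 4.56 ± 0.30 and 5.95 ± 0.35 for PMSC-MF-7d against PMSC. Aurka, the kinase of the spindle poles, changed by 5.20 ± 0.21, Nek2, which parts the centrosomes, by 6.31 ± 0.27, and Ttk, the Mps1 kinase of the spindle checkpoint, by 5.80 ± 0.33. Melk, a maternal embryonic kinase abundant in dividing cells, had 0, 0.316, 0 and 0 CPM in PMSC and 26.1, 21.6, 29.4 and 25.8 in PMSC-MF-7d, so its fitted change of 8.12 ± 0.39 rests on 5 counts in PMSC, all in replicate 2.

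Among checkpoint and kinetochore genes the culture change varied widely. Bub1, a checkpoint kinase of the kinetochore (chromosome 2, 127801122 to 127831865, minus strand), had 0, 0.253, 0.313 and 0 CPM in fresh PMSC, 50.1, 43.2, 51.4 and 55.0 in the day 3 portal cultures and 52.0, 49.1, 45.8 and 45.4 in the day 7 portal cultures. It had 22.8, 17.99, 20.3 and 20.8 CPM in HSC-MF-7d and 1.51, 2.80, 2.04 and 1.11 in HSC. Its fresh portal libraries were all below its fresh stellate libraries, and it rose by 8.55 ± 0.35 for PMSC-MF-7d against PMSC. Cenpa, the histone H3 variant that marks the centromere (chromosome 5, 30666777 to 30674830, plus strand), had 2.93, 2.78, 1.46 and 2.61 CPM in fresh PMSC, 44.4, 33.1, 34.2 and 35.5 at day 3 of portal culture and 35.1, 27.6, 31.3 and 34.6 at day 7. It had 13.3, 14.1, 12.8 and 15.5 CPM in HSC-MF-7d and 15.0, 10.4, 14.5 and 15.6 in HSC. Stellate cultures and fresh stellate cells overlapped, unlike for most of the 40 genes, while the portal cultures were above every other library. Per length Cenpa was the leading mitosis gene of HSC, with 23.96 ± 4.52 TPM or 12.7% of the 40 genes' total, against rank 17 with 26.8 ± 2.40 TPM in HSC-MF-7d (SD, n = 4). Cenpf, a large kinetochore protein, had 0.133, 1.01, 0 and 0.290 CPM in fresh PMSC, 43.1, 39.2, 43.1 and 40.7 after 3 days of portal culture and 70.7, 52.1, 58.1 and 57.5 after 7 days. Among the subunits of the Ndc80 complex, which grips spindle microtubules, the change for PMSC-MF-7d against PMSC was 4.91 ± 0.29 for Ndc80, 5.54 ± 0.20 for Nuf2 and 5.52 ± 0.29 for Spc25. The checkpoint genes Bub1b and Mad2l1 changed by 3.50 ± 0.18 and 3.67 ± 0.19, and the kinetochore kinesin Cenpe by 6.03 ± 0.29.

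Motor and cytokinesis genes were higher in portal than in stellate cultures by their means, while the order of the day 3 and day 7 portal means varied between them. Kif11, the kinesin that pushes the spindle poles apart (chromosome 19, 37376403 to 37421859, plus strand), had 2.66, 2.15, 2.72 and 3.83 CPM in fresh PMSC, 65.8, 57.7, 72.1 and 64.4 in the day 3 portal cultures and 78.0, 57.0, 64.3 and 59.1 in the day 7 portal cultures. It had 22.1, 21.6, 20.6 and 27.7 CPM in HSC-MF-7d and 10.2, 4.71, 4.68 and 5.56 in HSC. HSC replicate 1 stood above the other fresh stellate libraries, and all cultures were above all fresh libraries. Kif2c, a kinesin that shortens microtubules at centromeres, had 0.0665, 0.126, 0.104 and 0 CPM in PMSC and 45.9, 36.3, 38.5 and 40.05 in PMSC-MF-7d, a change of 9.05 ± 0.35 that rests on 4 counts in PMSC. Kif23, a motor of the cytokinesis midzone, had 19.2, 15.5, 15.6 and 20.2 CPM in HSC-MF-7d and 22.3, 9.36, 10.7 and 5.10 in HSC. The highest HSC library, replicate 1, was also the highest in macrophage markers, at 9351 CPM against 2583 to 4601 in the others. It was the highest in lymphocyte markers too, at 6.16 CPM, and held 14692 CPM of hepatocyte markers against 3448 to 14956 in the others. The part of other cells in its Kif23 level was not tested. Kif4, a chromosome-bound motor, and Kif20a, a cytokinesis motor, changed by 6.62 ± 0.29 and 6.05 ± 0.28 for PMSC-MF-7d against PMSC. Spindle assembly genes changed by 4.97 ± 0.20 for Tpx2, which activates Aurora A, by 4.42 ± 0.31 for Nusap1, which bundles microtubules, and by 7.55 ± 0.30 for Hmmr. The midzone and furrow genes Prc1, Ect2 and Anln changed by 5.32 ± 0.16, 5.68 ± 0.20 and 4.13 ± 0.16.

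Genes of mitotic exit include the ones of the anaphase-promoting complex. Cdc20, the activator of the anaphase-promoting complex (chromosome 4, 118432901 to 118437352, minus strand), had 4.19, 4.23, 3.66 and 3.14 CPM in fresh PMSC, 99.6, 82.3, 84.0 and 85.1 at day 3 of portal culture and 87.1, 68.3, 77.6 and 74.6 at day 7. It had 28.2, 33.5, 25.7 and 30.0 CPM in HSC-MF-7d and 5.55, 6.20, 4.18 and 2.94 in HSC. The fresh groups overlapped each other and no culture overlapped a fresh library. Ube2c, the ubiquitin-conjugating enzyme of that complex, ranked highest per length of the 40 genes in all 3 cultured groups, at 186 ± 20.6 TPM in day 3 and 182 ± 10.2 in day 7 portal cultures, against 75.8 ± 7.45 in HSC-MF-7d (SD, n = 4 each). Cdca3, an adaptor of a cell cycle ubiquitin ligase, changed by 6.34 ± 0.31 for PMSC-MF-7d against PMSC.

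Mki67, the Ki-67 antigen that coats mitotic chromosomes and serves as the usual marker of proliferation (chromosome 7, 135689784 to 135716361, minus strand), had 5.12, 15.4, 5.54 and 6.45 CPM in fresh PMSC, 221, 212, 235 and 219.8 after 3 days of portal culture and 275, 252, 276 and 246 after 7 days. It had 117, 120.3, 114 and 138 CPM in HSC-MF-7d and 33.9, 22.5, 33.8 and 21.4 in HSC. The 5 groups did not overlap for Mki67, and PMSC replicate 2 stood apart within its group. Top2a, which untangles sister chromatids (chromosome 11, 98992943 to 99024189, minus strand), had 0.798, 5.37, 2.72 and 4.71 CPM in fresh PMSC, 222, 205, 229.7 and 226 in the day 3 portal cultures and 234, 186, 208 and 207 in the day 7 portal cultures. It had 93.3, 102, 94.1 and 113 CPM in HSC-MF-7d and 24.2, 15.6, 19.2 and 15.6 in HSC. The portal cultures overlapped each other, and each other pair of groups was separate. Foxm1, the transcription factor of late cell cycle genes (chromosome 6, 128362967 to 128376146, plus strand), had 8.05, 9.598, 8.36 and 6.51 CPM in fresh PMSC, 106, 95.0, 94.8 and 103 at day 3 of portal culture and 97.5, 80.2, 95.4 and 90.4 at day 7. It had 37.7, 33.3, 32.0 and 36.9 CPM in HSC-MF-7d and 4.83, 6.56, 2.92 and 4.05 in HSC. It was higher in fresh portal than in fresh stellate cells, and those groups overlapped only in that the lowest PMSC library was just below the highest HSC library.

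**Figure D2:**
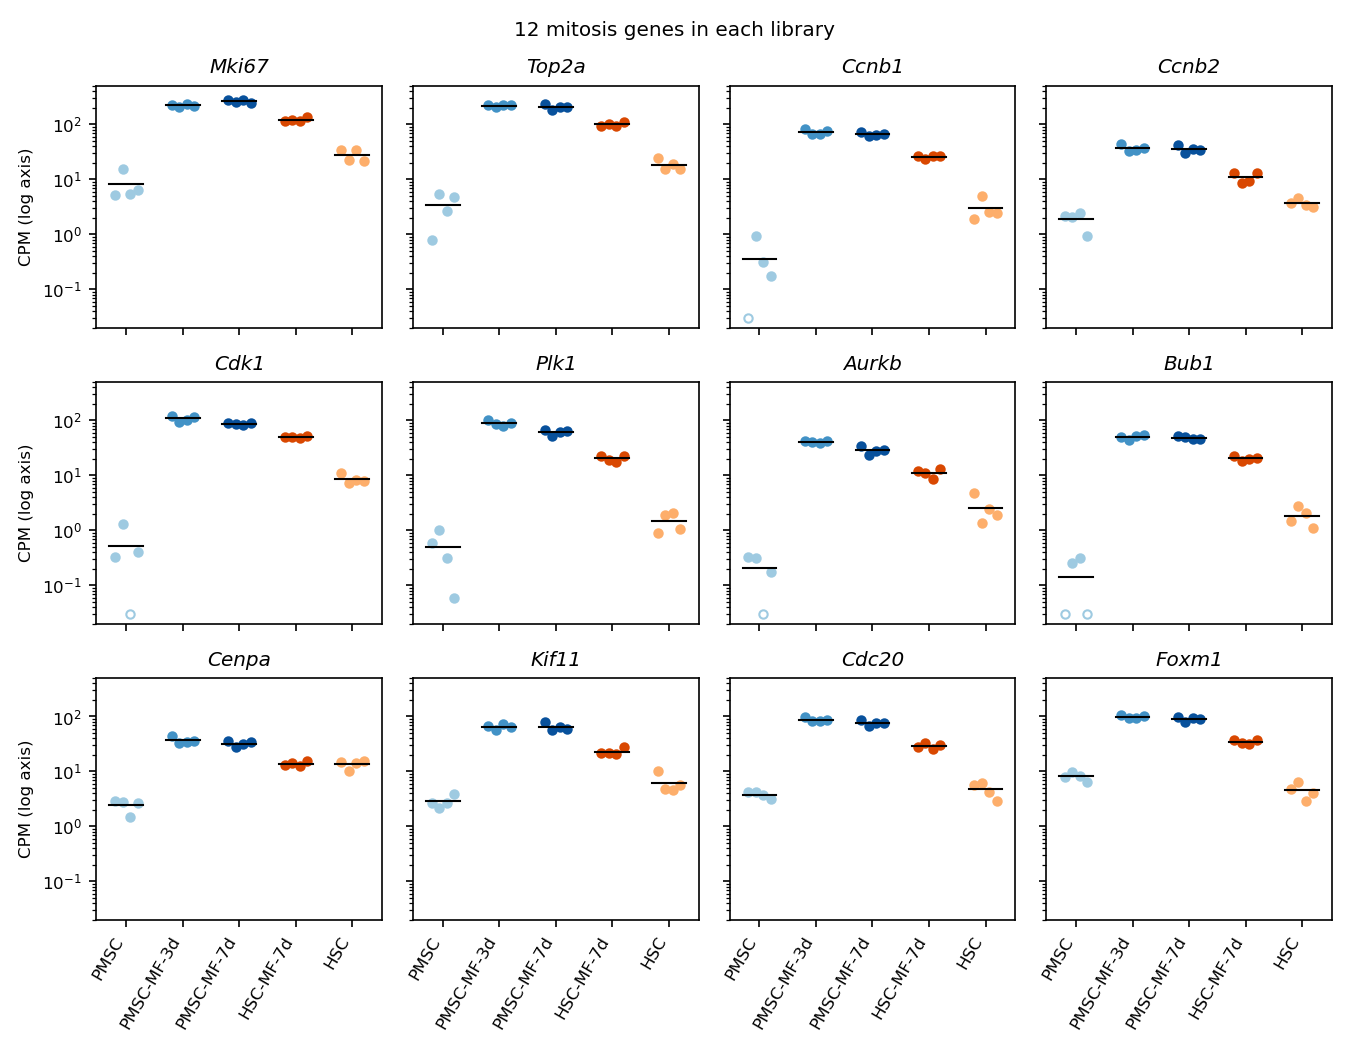
CPM (log axis) of 12 mitosis genes in each library, with a point per library, a bar at the mean of 4 and an open point at the lower edge for a library with no count. Cultured libraries lie far above fresh ones in the portal lineage, and PMSC-MF-3d and PMSC-MF-7d lie above HSC-MF-7d for each of the 12 genes.

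Comparing the fresh populations asked whether portal and stellate cells differ in mitotic transcripts before culture. In PMSC, 34 of the 40 genes were lower than in HSC and 2 were higher, with a median log2 fold change of -1.80, against 40.1% lower, 33.6% higher and a median of -0.10 over all tested genes. The largest differences were those of Kif2c (-4.99 ± 0.45), Cenpf (-4.21 ± 0.35) and Melk (-4.08 ± 0.50, edgeR adjusted p at or below 4.74e-07). Cdc25b (1.13 ± 0.22) and Foxm1 (0.82 ± 0.17) were higher in PMSC (edgeR adjusted p at or below 0.000247). Birc5 (-0.09 ± 0.35), Cdc20 (-0.31 ± 0.18), Cdc25c (-0.42 ± 0.81) and Ube2c (-0.54 ± 0.31) did not pass the threshold. Libraries did not overlap for 32 of the 40 genes, against 61.2% of all genes. The fresh stellate libraries also held more transcripts of macrophage, endothelial and most hepatocyte markers. All 12 macrophage markers were lower in PMSC, which had 27.1 to 37.3 CPM of them against 2583 to 9351 in HSC, and Vsig4, Marco and Cd163 had no count in PMSC. All 10 endothelial markers were lower in PMSC, at 74.9 to 220.9 CPM in sum against 6520 to 7745 in HSC, as were 11 of 12 hepatocyte markers. All 12 hepatocyte markers together summed to 685 to 1123 CPM in PMSC against 3448 to 14956 in HSC, and none of either list was at 0. The remaining hepatocyte marker, Cyp2e1, was higher in PMSC (2.31 ± 0.37, edgeR adjusted p = 1.32e-05). It made up most of the hepatocyte sum there, at a mean of 815 CPM of 978. Cholangiocyte markers summed to 65.5 to 98.6 CPM in PMSC and 16.5 to 117 in HSC, and lymphocyte markers to 3.03 to 6.06 in PMSC and 2.16 to 6.16 in HSC. Erythroid markers summed to 0.104 to 1.77 CPM in PMSC and 40.1 to 58.1 in HSC. The part of these cells in the difference was not tested. With library totals in place of TMM the median over the 40 genes was -2.15 and that over all genes -0.44, and without PMSC replicate 2 the members' median was -2.14. That library was the highest of PMSC for 24 of the 40 genes, and without it the log2 fold change was -4.25 in place of -3.03 for Ccnb1, -4.82 in place of -3.93 for Cdk1 and -5.35 in place of -4.21 for Cenpf.

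Over the first 3 days of portal culture every gene of the list rose. All 40 were higher in PMSC-MF-3d than in PMSC, with a median log2 fold change of 5.65 and a range of 1.30 to 9.25, against 37.2% of all genes higher, 41.1% lower and a median of -0.07. The smallest rises were those of Cdc25b (1.30 ± 0.21), Kif23 (3.38 ± 0.31) and Foxm1 (3.62 ± 0.16), and the largest those of Melk (8.47 ± 0.39), Bub1 (8.61 ± 0.35) and Kif2c (9.25 ± 0.35). For 39 genes the log2 change was over 2 and for 14 it was over 6. The groups' libraries did not overlap for any of the 40 genes, against 70.1% of all genes. Over 7 days the result was alike in size, with all 40 higher in PMSC-MF-7d than in PMSC (38.1% of all genes higher, 39% lower), a median of 5.53 and no overlap for any of them (66.7% of all genes). With library totals these medians were 6.16 at day 3 and 6.00 at day 7, while the median over all genes was 0.41 and 0.43. Without PMSC replicate 2 the log2 rise at day 3 was 8.88 in place of 7.62 for Ccnb1 and 7.87 in place of 6.69 for Cenpf. Macrophage markers summed to 31.4 to 43.9 CPM in the day 3 cultures, against 27.1 to 37.3 in fresh PMSC, but 6 of the 12 were lower and 1 higher. The higher gene, Csf1r (4.04 ± 0.415, edgeR adjusted p = 2.81e-08), had a mean of 36.0 CPM of the summed 38.6 at day 3. Hepatocyte markers summed to at most 1.32 CPM in the day 3 cultures, against 685 to 1123 in fresh PMSC.

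From day 3 to day 7 of portal culture the members' changes were small, and the number called depended on the test. In PMSC-MF-7d against PMSC-MF-3d, 2 of the 40 genes were lower and none higher, against 17.4% lower and 18.6% higher over all genes, with a median log2 fold change of -0.10 and a range of -0.54 to 0.52. At an unadjusted p under 0.05, 4 were lower and 2 higher. DESeq2 called 6 lower and 1 higher, limma on log2(TPM + 1) 1 lower and 3 higher, and edgeR fitted to these groups alone 10 lower and 4 higher. Aurka had 37.5, 41.2, 45.5 and 42.1 CPM in PMSC-MF-7d and 62.4, 62.1, 52.1 and 62.6 in PMSC-MF-3d, and these libraries did not overlap. Its log2 fold change was -0.52 ± 0.15 (edgeR adjusted p = 0.00929). Plk1 was lower by a similar amount (-0.54 ± 0.20, edgeR adjusted p = 0.0414), a call kept in 1 of the 8 fits that left out a library. Aurkb (-0.52 ± 0.23) did not pass, though it did with DESeq2 (adjusted p = 0.0483) and with edgeR on these groups alone (adjusted p = 0.000934). Cdk1 was lower in both of these fits as well, and Mki67 was higher in the second. In the fit of all groups these did not pass, nor did the largest positive values, those of Cenpf (0.52 ± 0.21), Anln (0.34 ± 0.14) and Cenpe (0.32 ± 0.21). Libraries did not overlap for 13 of the 40 genes, against 41.9% of all genes.

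Within this small range the values went with transcript length, as given for PMSC replicate 1, a library outside this comparison. Spearman's rho between length and log2 fold change was 0.544 across the 40 genes and 0.135 across the 14751 tested genes, as descriptions across genes, which are not independent replicates and share the same 8 libraries. The 10 mitosis genes over 4000 bases had a median of -0.003, with 5 of 10 above 0, and the 30 shorter ones a median of -0.174, with 6 of 30 above 0. The 4 longest, Cenpf (11122 bases), Mki67 (10075), Cenpe (7813) and Anln (5421), all had positive values. In the other comparisons rho across the 40 genes ran from -0.382 (PMSC-MF-3d against HSC-MF-7d) to 0.199. The part of RNA quality or length in these values was not tested.

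**Figure D3:**
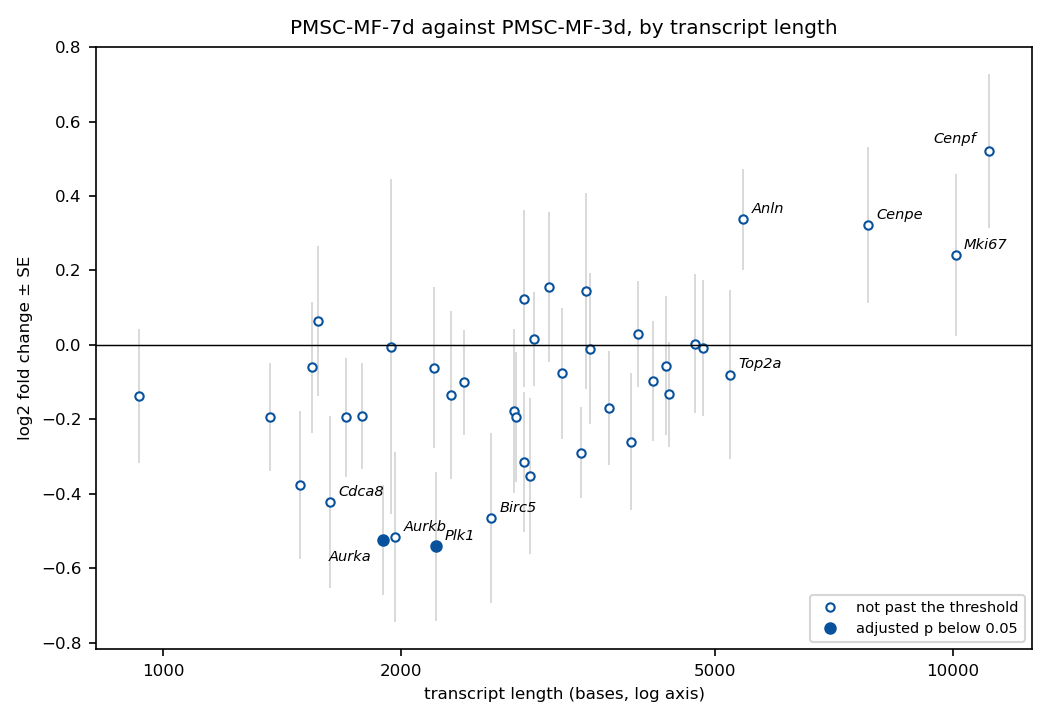
Log2 fold change ± SE of PMSC-MF-7d against PMSC-MF-3d (y axis) by transcript length in bases (x axis, log scale), a point per mitosis gene. Lengths are those given for PMSC replicate 1, and points are filled where the adjusted p was below 0.05. Values lie between -0.54 and 0.52, and the longest genes Cenpf, Mki67, Cenpe and Anln lie above 0.

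In stellate cells, culture raised nearly the whole list, by less. In HSC-MF-7d, 38 of the 40 genes were higher than in HSC and none lower, against 36% higher and 38.5% lower over all genes, with a median log2 fold change of 2.56 against -0.03. The largest rises were those of Ube2c (3.88 ± 0.24), Plk1 (3.77 ± 0.26) and Cdc25c (3.52 ± 0.61). Cenpa (0.01 ± 0.15, edgeR adjusted p = 0.971) and Kif23 (0.57 ± 0.28, edgeR adjusted p = 0.0706) did not pass the threshold. Without HSC replicate 1, the library richest in macrophage and lymphocyte markers, Kif23 was higher in HSC-MF-7d by 1.08 (edgeR adjusted p = 0.000143). Cenpa stayed between -0.09 and 0.08 whichever library was left out. Libraries did not overlap for 38 genes, against 71.3% of all genes. All 12 macrophage and all 10 endothelial markers were lower in HSC-MF-7d, at 32.2 to 59.6 and 62.5 to 81.7 CPM, against 2583 to 9351 and 6520 to 7745 in HSC, and Timd4 alone of these had no count in HSC-MF-7d. All 12 hepatocyte markers were lower too, at most 1.43 CPM in sum in HSC-MF-7d, where Serpina1a and Serpina1b had no count. The part of cells lost in culture in these changes was not tested.

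Portal cultures held more mitotic RNA than stellate cultures. In PMSC-MF-7d, 39 of the 40 genes were higher than in HSC-MF-7d and none lower, against 23.9% higher and 23.1% lower over all genes, with a median log2 fold change of 1.17 against 0.00. The largest differences were those of Cdc25b (1.87 ± 0.21), Ccnb2 (1.69 ± 0.19) and Kif2c (1.64 ± 0.18, edgeR adjusted p at or below 6.17e-07). The smallest were those of Mad2l1 (0.68 ± 0.16) and Anln (0.60 ± 0.14), and Spc25 alone did not pass (0.20 ± 0.20, edgeR adjusted p = 0.438). Mki67 was higher by 1.10 ± 0.22 and Foxm1 by 1.38 ± 0.15 (edgeR adjusted p at or below 0.000392). Libraries did not overlap for 39 genes, against 52.2% of all genes. Endothelial markers were lower in PMSC-MF-7d for 9 of 10, with summed levels of 8.40 to 16.5 CPM against 62.5 to 81.7 in HSC-MF-7d, and macrophage markers for 8 of 12, at 11.4 to 16.2 CPM against 32.2 to 59.6. In PMSC-MF-7d 1 endothelial and 3 macrophage markers had no count, and in HSC-MF-7d 1 macrophage marker had none. Their part in the difference was not tested. Since the time of the stellate cultures is uncertain, PMSC-MF-3d was set against them as well, and 37 genes were higher and none lower (27.2% of all genes higher, 27.4% lower), with a median of 1.29. Spc25 (0.14 ± 0.20), Anln (0.26 ± 0.14) and Cenpe (0.48 ± 0.21) did not pass, and the largest were Kif2c (1.84 ± 0.18), Aurkb (1.86 ± 0.24) and Plk1 (2.11 ± 0.21). For 39 genes the libraries did not overlap in that comparison, against 61.7% of all genes.

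**Figure D4:**
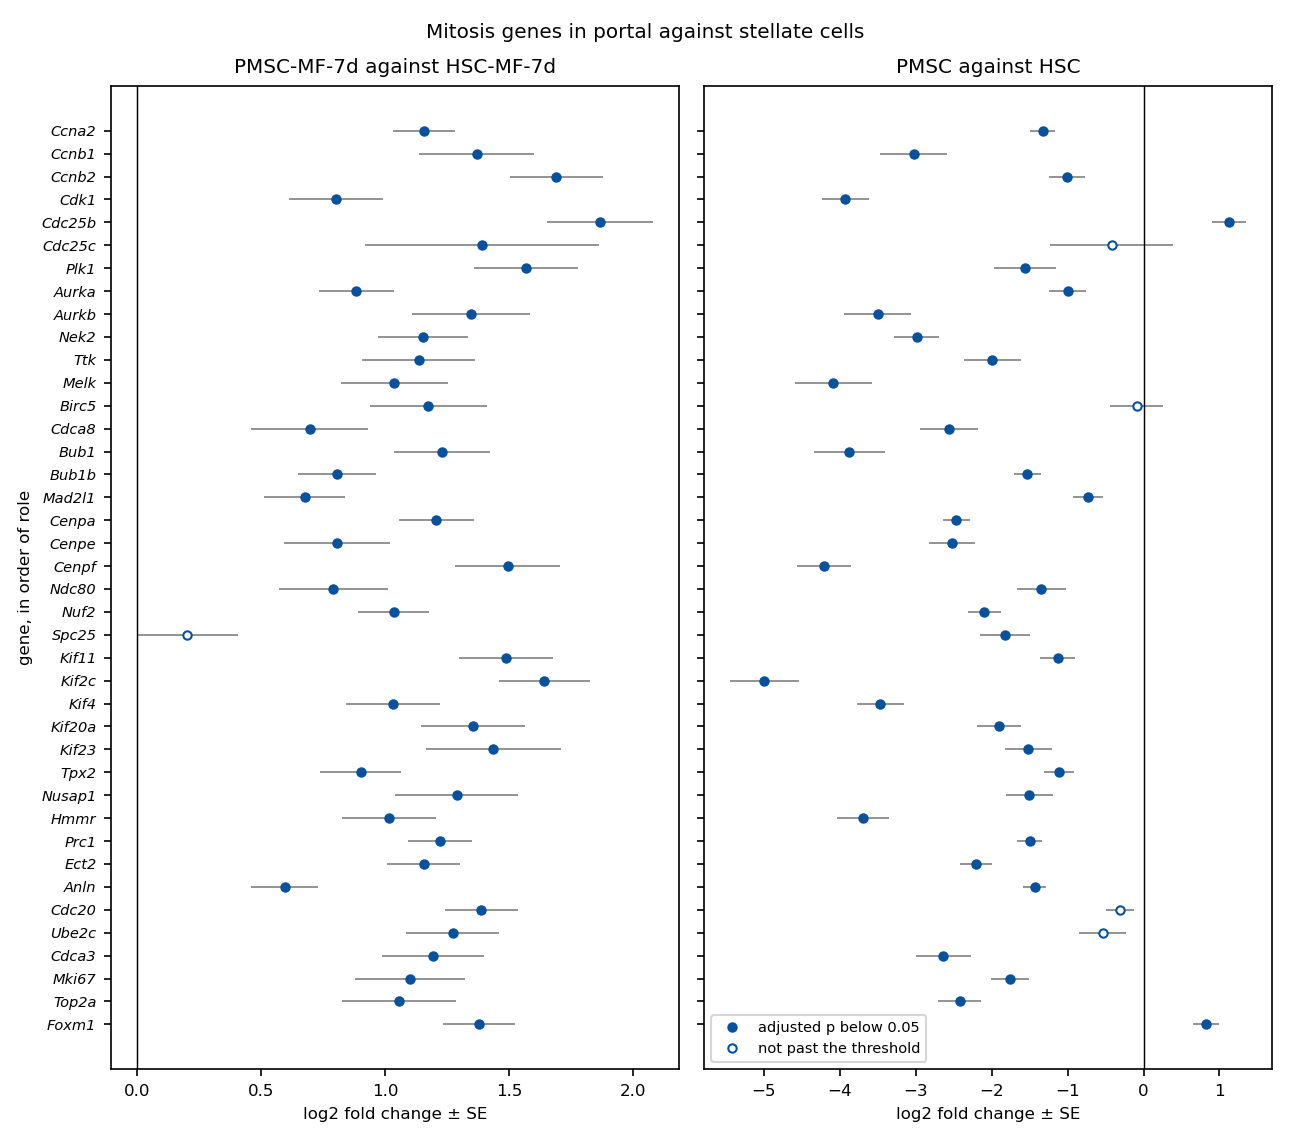
Log2 fold change ± SE of each of the 40 mitosis genes in PMSC-MF-7d against HSC-MF-7d (left) and in PMSC against HSC (right), in order of role, filled where the adjusted p was below 0.05. All points lie above 0 in culture, and 38 of 40 lie below 0 in fresh cells.

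The culture change itself was tested for a difference between the lineages, as the change from PMSC to PMSC-MF-7d minus that from HSC to HSC-MF-7d. The portal change was larger for 39 of the 40 genes and smaller for none, against 31.4% larger and 29.2% smaller over all genes, with a median difference of 3.04 on the log2 scale against 0.10. It was largest for Kif2c (6.63 ± 0.47), Cenpf (5.70 ± 0.41) and Melk (5.12 ± 0.54, edgeR adjusted p at or below 1.3e-07). It was smallest for Foxm1 (0.55 ± 0.22), Cdc25b (0.74 ± 0.31) and Birc5 (1.27 ± 0.42), and Cdc25c alone did not pass. The Foxm1 call was kept in 6 of the 16 fits that left out a library and the Cdc25b call in 5 of them. This difference holds the lower starting level of PMSC as well as the higher level of PMSC-MF-7d. For Mki67 the portal change was 4.99 ± 0.27 and the stellate change 2.13 ± 0.23, a difference of 2.86 ± 0.33, of which the cultured groups differed by 1.10 and the fresh groups by -1.76.

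**Figure D5:**
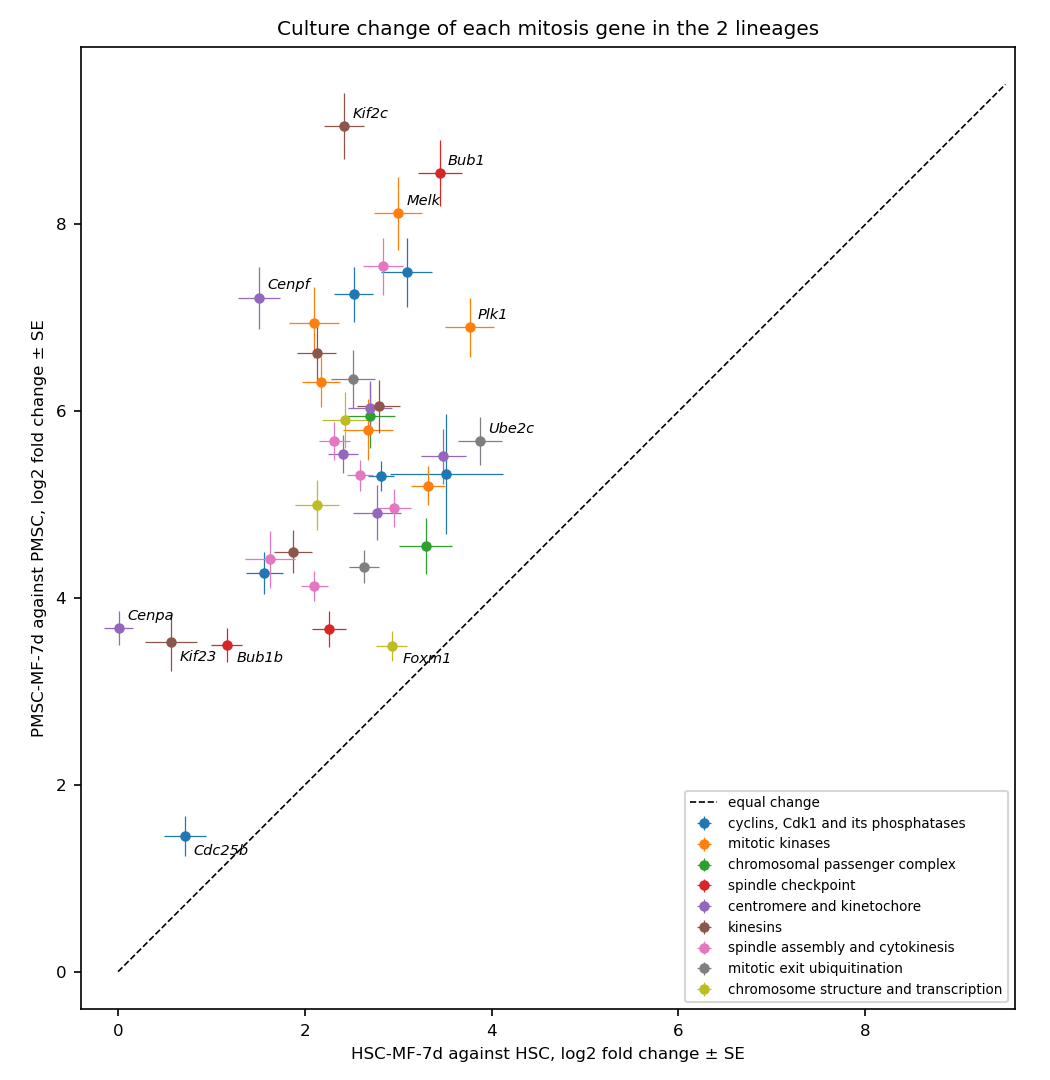
Log2 fold change ± SE of PMSC-MF-7d against PMSC (y axis) and of HSC-MF-7d against HSC (x axis) for the 40 mitosis genes, coloured by role, with a dashed line of equal change. All 40 points lie above the line, Foxm1 and Cdc25b closest to it and Kif2c farthest.

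Across the 20 libraries the members' levels were closely correlated, which holds the differences between groups. The median Pearson r between a member and the mean of the other 39, on log2 CPM, was 0.978, and the lowest was 0.635, for Cdc25b. With the group means taken out the median was 0.473, and the values ran down to -0.686 for Aurka, -0.308 for Ube2c and -0.205 for Kif11, as a description of libraries that share their depth and scaling. Within groups, 1 library was often the highest across many genes. In PMSC-MF-3d replicate 1 was the highest for 27 of 40 and in PMSC-MF-7d replicate 1 for 29, while replicate 2 was the lowest for 28 and 30. In HSC-MF-7d replicate 4 was the highest for 26. The genes outside the list whose 5 group means were most like the mean of the 40 were Ppp1r26, Adpgk, Brip1, Crls1 and Dscc1, then Pclaf, Topbp1, Rnf26, Vdac1 and Nup93, with r from 0.998 to 0.9999 over 5 points. Over deviations from the group means in 20 libraries the most alike were Cyp3a11 (r = 0.896), Rhbdd2 (0.888), Troap (0.888), Akr1c6 and Dmgdh, followed by Gm21320, Cyp4a14, Kcnt1, Kif20b and Cyp2a5. With the group means kept in, only Troap (r = 0.987) and Kif20b (0.952) of these were positive. The others ran from -0.736 for Kcnt1 to -0.437 for Dmgdh, with Cyp3a11, a hepatocyte marker, at -0.502. The largest mean deviations of the 40 genes were those of PMSC replicates 2 (0.611) and 4 (-0.33).

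Lists of other genes of division were counted beside the 40, and over all tested genes 37.2% were higher and 41.1% lower in PMSC-MF-3d than in PMSC. In PMSC-MF-3d against PMSC all 8 condensin genes and all 8 further mitotic kinesins were higher, with median log2 fold changes of 3.01 and 5.66, as were 30 of 33 further centromere and kinetochore genes (1 lower) and 23 of 24 further spindle and cytokinesis genes (1 lower). Among them, the condensin subunit Ncaph changed by 4.79 ± 0.29 and the midbody protein Cep55 by 6.46 ± 0.26 (edgeR adjusted p at or below 1.23e-11). Of 17 genes of the anaphase-promoting complex 11 were higher and 2 lower, with a median of 0.52, and of 13 cohesin genes 8 were higher and 5 lower, among them separase, Espl1, higher by 4.24 ± 0.24. Securin, Pttg1, which separase is freed from at anaphase, was lower in culture (edgeR adjusted p at or below 2.26e-10), at 11.7 ± 0.929 CPM in PMSC-MF-3d against 44.5 ± 8.26 in PMSC and at 9.31 ± 1.49 CPM in HSC-MF-7d against 38.1 ± 0.711 in HSC (SD, n = 4 each). In the MuvB and Myb list of 20 genes 12 were higher and 6 lower, with Mybl2, the B-Myb gene, higher by 3.31 ± 0.32 (edgeR adjusted p = 9.32e-09).

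From day 3 to day 7, 18.6% of all tested genes were higher and 17.4% lower. Replication licensing genes, which load the helicase before S phase, were lower in PMSC-MF-7d than in PMSC-MF-3d for 9 of 10 and higher for none, with a median log2 fold change of -0.68, led by Cdc6 (-0.96 ± 0.19), Mcm5 (-0.90 ± 0.13) and Cdt1 (-0.83 ± 0.19, edgeR adjusted p at or below 0.00171). Of the 33 further kinetochore genes 8 were lower and none higher, with Trip13 at -0.73 ± 0.16. Of 8 G1 cyclins and kinases 3 were higher and 3 lower, with Ccnd1, cyclin D1, higher by 2.81 ± 0.12. Of 7 CDK inhibitors 4 were higher and none lower, with Cdkn2b, the p15 inhibitor of the cyclin D kinases, higher by 2.52 ± 0.29 (edgeR adjusted p = 2.49e-06). In PMSC-MF-7d against HSC-MF-7d, where 23.9% of all genes were higher and 23.1% lower, 7 of 8 further kinesins, 16 of 24 further spindle genes (1 lower) and 5 of 8 condensin genes were higher, while 6 of 10 licensing genes were higher and 1 lower.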

How the data were processed

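Per the labels' protocols, RNeasy Micro was used for RNA and KAPA Stranded mRNA-Seq for the libraries. The submitters' processing notes name FastQC, Trimmomatic, STAR 2.5.3a, RSEM 1.2.28 and the mm10 build, with no settings or strand option. The deposited expected counts are RSEM's estimates per gene, not normalised, per the file headers. The deposited TPM values are RSEM's length-scaled levels per the file headers, and the deposited FPKM values, also from RSEM, were not used. All 800 values of the 40 genes were whole numbers. By the GENCODE annotation of GRCm38, 11 of the 40 genes share exon sequence with a gene on the other strand, among them Cdc20, Ube2c and Cdc25b. Foxm1 shares it with others on its own strand. The counts of these genes may be less certain, which was not tested.

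The test was that of edgeR 4.0.16 (R 4.3.3), on rounded counts. filterByExpr kept 14751 genes, TMM scaled the library sizes, and the robust quasi-likelihood fit took all 20 libraries with 5 group means. Benjamini-Hochberg adjustment ran over the whole table, and calls needed an adjusted p below 0.05. Standard errors are the log2 fold change over the square root of F. Alternatives were DESeq2 1.42.0, limma 3.58.1 on log2 TPM, other scalings, no filter, the compared groups alone, a replicate block and leaving out each library. The members, lists, panel of 12 genes and rules for named genes (the 3 largest and 3 smallest changes, up to 3 called genes of at least 10 CPM per other list) were chosen with earlier results of these data known. The titles were followed for the time of the stellate cultures. Same-numbered libraries were not treated as pairs. The test was checked first on simulated data with known changes. Those changes were smaller than most of the members' culture changes, so the check does not cover changes of that size.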

Additional observations from a re-analysis of the deposited data

Results flagged for a closer look

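The culture change differed between the lineages for 39 of the 40 mitosis genes by a test of the difference itself (edgeR, adjusted over all tested genes), each larger in the portal lineage. Among the panel genes the difference, portal minus stellate on the log2 scale, was 5.11 for Bub1, 4.85 for Aurkb, 4.73 for Cdk1 and 4.39 for Ccnb1. It was 3.67 for Cenpa, 3.48 for Top2a, 3.14 for Plk1 and 2.86 for Mki67. It was 2.70 for Ccnb2, 2.62 for Kif11, 1.70 for Cdc20 and 0.55 for Foxm1.

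Of 70 groups of 4 values examined, 4 held a library with a wide gap to the others, where chance gives about 1 in 20. Mki67 was at 15.4 CPM in PMSC replicate 2, the highest of its group. Ccnb1 was at 23.1 CPM in HSC-MF-7d replicate 2, the lowest of its group. Kif11 was at 10.2 CPM in HSC replicate 1, and Cdc20 was at 99.6 CPM in PMSC-MF-3d replicate 1, each the highest of its group.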

How the results depend on the processing

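Counts of members called moved by over 1.5 times only between day 7 and day 3 of portal culture, where edgeR called 2 lower and none higher. DESeq2 called 6 lower and 1 higher, limma on log2(TPM + 1) 1 lower and 3 higher, limma on log2(TPM + 0.1) 0 lower and 1 higher, and edgeR on the compared groups only 10 lower and 4 higher. Leaving out a library in turn gave 1 to 3 lower and 0 higher. The cause was not tested. In the other 7 comparisons counts moved by less: PMSC against HSC had 29 to 37 lower in place of 34, and day 7 portal against stellate cultures 35 to 39 higher in place of 39. With limma on log2(TPM + 1) the members' median was -1.329 in place of -1.795 for PMSC against HSC. It was 4.635 in place of 5.645 for PMSC-MF-3d against PMSC, and 4.646 in place of 5.529 for PMSC-MF-7d against PMSC. For the difference of the culture changes it was 2.397 in place of 3.043. On log2(TPM + 0.1) these medians were -2.113, 5.88, 5.898 and 3.242 in the same order. Scaling by library totals moved medians over all genes, as given beside the results. Under it, among all genes called, those higher made up 33.3% in place of 45.6% for PMSC against HSC, 61.7% in place of 47.5% for PMSC-MF-3d against PMSC, 63.5% in place of 49.4% for PMSC-MF-7d against PMSC and 66% in place of 51.8% for the difference. Fitting only the compared groups ended the calls of Ccnb2 (edgeR adjusted p = 0.0617) and Plk1 (0.0849) in PMSC against HSC. The Foxm1 difference of culture changes lost its call with DESeq2's size factors in edgeR (adjusted p = 0.0802), with DESeq2 (0.0535) and with only the compared groups (0.063). Cdk1 in PMSC-MF-7d against HSC-MF-7d lost its call with limma on log2(TPM + 0.1) (adjusted p = 0.112). Between day 7 and day 3 both limma fits called more members higher than lower, the other way from edgeR. Among all genes called there, those higher made up 64.1% with limma on log2(TPM + 1) and 63.9% on log2(TPM + 0.1), against 51.7% with edgeR. No called value of a panel gene changed sign, while Cenpa in HSC-MF-7d against HSC, not called, lay on either side of 0. Depth limits the fresh portal values of several genes. Over the 4 PMSC libraries Kif2c and Melk had 4 and 5 counts, Bub1 7, Aurkb 13, Ccnb1 21 and Cenpf 23.

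Same-numbered libraries deviated together at r over 0.1 in 2 of 40 pairs, which does not meet the bar for pairing. Between the day 3 and day 7 portal cultures r was 0.002 to 0.122 for same numbers, and 3 of the 4 day 3 libraries correlated best with their own number, so shared origin there cannot be told from these data. With the replicate number as a block, 39 members were called higher in HSC-MF-7d against HSC and 38 in the difference, and Plk1 was not called in PMSC-MF-7d against PMSC-MF-3d.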
